A study of Mus musculus with 4 samples.

Results

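The proteasome subunit genes are described here as they were measured by RNA sequencing in mouse haematopoietic stem cells (HSCs). They were taken as every feature of the deposited table whose gene name holds Psma, Psmb, Psmc or Psmd followed by a number. Psmb8 and Psmb9, which belong to the interferon-induced form of the particle, were left out. The rule found 37 genes among 34315 features. They comprise 8 alpha subunits and 9 beta subunits of the 20S core particle, 6 ATPases of the 19S regulatory particle and 14 genes numbered as non-ATPase subunits of that particle. The rule itself uses no measured value.

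The proteasome degrades proteins that carry ubiquitin chains. Its barrel-shaped core is built from rings of alpha subunits, which gate the entrance, around rings of beta subunits, a few of which hold the proteolytic sites. The regulatory particle binds and deubiquitinates substrates, and its ring of ATPases unfolds them and feeds them into the core. Since the subunits act as one particle, cells need their products in fixed proportions. HSCs are known for a low rate of protein synthesis and for sensitivity to disturbed protein turnover.

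The samples are 4 wild-type libraries of HSCs freshly sorted from C57BL/6 bone marrow as side population cells, defined by dye efflux, with the KSL-CD150+ surface phenotype. The labels call all 4 technical replicates of biological replicate 1, whereas the design text of the series speaks of duplicates. The arm labelled Dnmt3a-KO, in which a de novo DNA methyltransferase gene is knocked out, is represented by summary columns of the authors' deposited table: a mean count, the log2 ratio to wild type and its adjusted p-value. How the knockout was made, from how many mice and at what age is a point not given in the sources used here. Column names of that table list 4 knockout libraries, which have no sample record here, so their own values were not analysed and no spread is given for that arm. The p-values from the authors' deposited table may measure technical spread only.

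Library totals were 40709659 to 47408552 counts. Libraries 1 and 2 were far closer to each other than to libraries 3 and 4, and the same held for libraries 3 and 4, with a median chi-square per degree of freedom of 0.763 and 0.682, against 11.99 to 13.0 between libraries of different pairs. Counting noise alone gives a median of 0.455, and the means within pairs, 2.03 and 1.87, show some features that differ by more. The targeted gene, Dnmt3a, stood at 8424 normalised counts in the arm labelled knockout, against 8229, 8569, 5400 and 5208 in wild-type libraries 1 to 4, so its total count leaves that label unchecked. All 8 HSC markers examined, Kit and Procr among them, were detected in every arm and took 0.255% of counts in the knockout arm and 0.321% to 0.379% in wild type. Neutrophil markers, 7 in all and each above 0 reads in both arms, took 0.0530% in the knockout arm, against 0.114% and 0.112% in wild-type libraries 1 and 2, while libraries 3 and 4 had 0.0222% and 0.0224%. Immediate early genes, which handling can induce, took 0.1597% in the knockout arm, against 0.0234% and 0.0241% in wild-type libraries 1 and 2, while libraries 3 and 4 had 0.485% and 0.481%. Megakaryocyte markers took 0.00929% in the knockout arm, against 0.0458% to 0.0556% in wild type. Erythroid markers took 0.00113% in the knockout arm, against 0.00361% to 0.00514% in wild type. Macrophage markers took 0.000652% in the knockout arm, against 0.00155% to 0.0028% in wild type. Mast cell markers took 0.000165% in the knockout arm, against 0.00203% to 0.00352% in wild type. In the authors' deposited table the erythroid gene Rhag was called at -6.74 on the log2 scale (adjusted p 4.05e-07) and the mast cell gene Fcer1a at -6.02 (adjusted p 2.14e-06). B cell and T cell markers took at most 0.000265% in any library.

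Promoter sequence was available for 30 of the 37 genes, from RefSeq on build GRCm38.p6, as the bases from 250 before to 50 after the annotated start. Stretches upstream of the start are shown for 4 of them: Psmb5 and Psmb6, which encode catalytic subunits and hold the core of an antioxidant response element (ARE), and Psmd10 and Psmd11, which had the lowest and the highest log2 fold change of these 30 genes in the authors' deposited table. Each is written 5′ to 3′ on the strand of its gene. Capitals mark matches, on either strand, to the ARE core TGACNNNGC, the CCAAT box and the ETS-type site CCGGAAG.
Psmb5, chr14:54617996-54618245, minus strand: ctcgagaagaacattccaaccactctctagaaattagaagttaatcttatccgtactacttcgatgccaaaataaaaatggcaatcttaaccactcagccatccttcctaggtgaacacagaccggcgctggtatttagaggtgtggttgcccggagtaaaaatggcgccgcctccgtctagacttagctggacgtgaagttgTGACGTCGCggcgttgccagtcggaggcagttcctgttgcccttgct
Psmb6, chr11:70525107-70525356, plus strand: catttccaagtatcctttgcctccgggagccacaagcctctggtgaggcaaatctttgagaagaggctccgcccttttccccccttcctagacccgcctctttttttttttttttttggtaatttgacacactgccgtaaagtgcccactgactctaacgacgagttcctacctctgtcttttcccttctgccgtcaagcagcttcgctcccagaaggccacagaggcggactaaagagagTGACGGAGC
Psmd10, chrX:140956712-140956961, minus strand: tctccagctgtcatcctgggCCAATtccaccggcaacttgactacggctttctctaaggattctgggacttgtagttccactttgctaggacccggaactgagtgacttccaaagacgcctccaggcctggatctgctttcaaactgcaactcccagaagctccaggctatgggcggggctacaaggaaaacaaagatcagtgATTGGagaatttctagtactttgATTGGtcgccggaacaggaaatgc
Psmd11, chr11:80428365-80428614, plus strand: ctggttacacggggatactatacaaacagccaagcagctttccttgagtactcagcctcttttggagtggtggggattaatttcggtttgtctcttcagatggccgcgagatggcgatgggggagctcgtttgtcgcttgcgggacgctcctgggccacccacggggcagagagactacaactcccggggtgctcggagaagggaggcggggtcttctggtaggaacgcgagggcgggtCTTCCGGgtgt
The ARE core is known as a binding site of Nfe2l1 and Nfe2l2, and Nfe2l1 raises proteasome genes when the particle is inhibited. It was present in 5 of the 30 promoters (16.7%), those of Psmb5, Psmb6, Psmc6, Psmd9 and Psmd12, and in 12.5% of 27025 promoters of all genes. The CCAAT box was in 12 (40.0%), against 37.9% of all promoters. The ETS-type site was in 9 (30.0%), against 9.12%, and the 9 were Psmc1, Psmc2, Psmc6, Psmd2, Psmd4, Psmd6, Psmd11, Psmd12 and Psmd13, none of them a core particle gene. The members' promoters are also richer in CpG, with a median of 19 CpG against 7 in all promoters. Among promoters with at least 10 CpG the ETS-type site was in 9 of 27 (33.3%) of the members, against 17.5% of all. Each of the 4 sequences shown holds matches to 1 motif only, so none of these overlap another motif.

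The level of each gene is given in RPKM, here the normalised count divided by exon length and by the mean library total, which allows genes of different length to be compared, and the knockout mean is placed on the same scale. Of the 37 genes, 36 were measured, with a mean of at least 10 normalised counts over both arms. Their wild-type means ran from 650 to 11781 normalised counts, so counting error is small for all of them. The gene that was not measured was Psmb11, which encodes the beta5t subunit of the thymus-specific proteasome. It had 1 read in wild-type library 2 and 0 reads in the other 3 wild-type libraries and in the knockout mean, and a count of 0 in a library allows a true count of up to 3.

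Together the 37 genes took 0.268% of all counts in the knockout arm, and 0.337%, 0.3365%, 0.364% and 0.3644% in wild-type libraries 1 to 4. Over the 4 wild-type libraries the share was 0.3515%, with an exact binomial 95% interval of 0.3506% to 0.3524%. The interval reflects counting alone, as PCR duplicates of a molecule are counted separately. In bulk samples such as these, fewer cells of a type and less RNA per cell cannot be told apart. The lower share in the knockout arm holds for tested features at large. On library totals the median log2 ratio of knockout arm over wild type was -0.39 for the 36 measured genes and -0.43 for all 21778 tested features. The 1000 features with most counts took 47.0% of the counts in the knockout arm, against 41.7% to 44.3% in wild-type libraries. The authors' scaling raises the knockout arm by 0.40 on the log2 scale, and all ratios below are on that scale.

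Most of these genes were highly expressed. The median level of the 36 measured genes was 62.1 RPKM in the knockout arm and 63.7 to 67.4 RPKM in the 4 wild-type libraries, against 3.68 RPKM in the knockout arm and 3.91 to 4.22 RPKM in wild type over all tested features. The 6 ATPases were the most even, with a 1.89-fold range in the knockout arm and 1.69-fold over wild-type means. Beta subunits had a 3.32-fold range in the knockout arm and 2.48-fold in wild type. Across the 36 genes, the order of levels in the knockout arm resembled that in wild type, with a Spearman rho of 0.874 and a Pearson r of 0.853 between log2 levels. These describe genes that share libraries and lengths, and are not replicates.

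**Figure D1:**
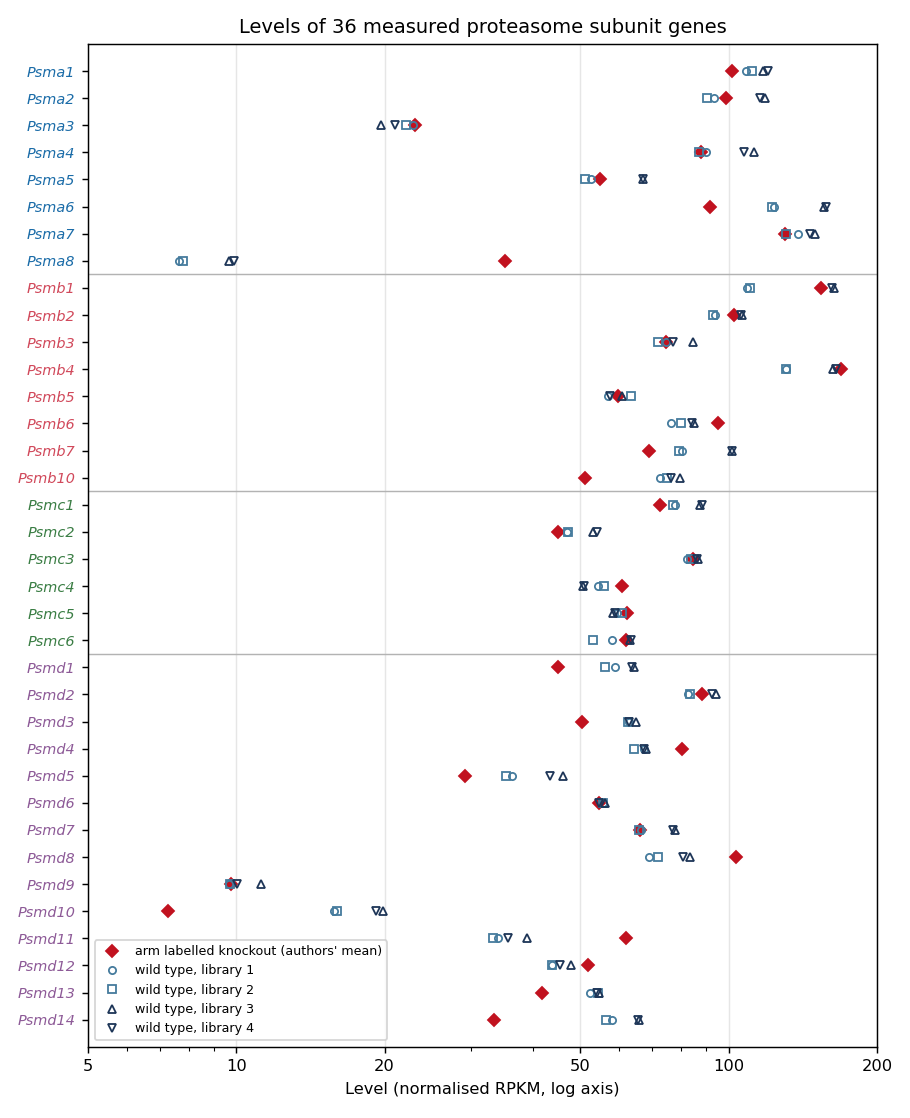
Level of each of the 36 measured genes on a log axis in normalised RPKM, with the authors' mean of the arm labelled knockout (diamonds) and each wild-type library (open symbols); label colours and lines separate alpha, beta, ATPase and non-ATPase genes. Psma8, Psmd9 and Psmd10 have the lowest wild-type means, 8.75, 10.1 and 17.7 RPKM, and Psma8 is the gene whose knockout value, 35.2 RPKM, stands farthest from wild type.

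Alpha subunits differed widely among themselves. Psma7, which encodes alpha4, was the highest of them in wild type beside Psma6, with 130.2 RPKM in the knockout arm, against 138, 131, 149.6 and 146 RPKM in wild-type libraries 1 to 4. Psma8 encodes a germ-cell form of alpha4 that takes its place in the proteasome of spermatogenic cells, and it was the lowest in wild type. It stood at 35.2 RPKM in the knockout arm, against 7.64, 7.79, 9.67 and 9.91 RPKM in wild-type libraries 1 to 4. Its knockout mean therefore lay above every wild-type library. The authors' deposited table gave Psma8 a log2 fold change of 2.004 (4.01-fold, adjusted p 0.152), so it was not called.

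Counted per length, Psma8 made up 21.3% of the sum of Psma8 and Psma7 in the knockout arm and 5.24% to 6.34% in wild-type libraries. The Psma8 and Psma7 transcripts annotated in GENCODE vM21 share 74.9% identity over 756 aligned positions, and their longest identical stretch is 17 bases. How the authors assigned reads that fit more than 1 gene is a point not given in the sources used here. No other feature of the table overlaps Psma8, which lies at chromosome 18, 14864660 to 14920808 (mm9).

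Among the other alpha genes the authors' deposited table had log2 fold changes between -0.61 and 0.11. Psma6, which encodes alpha1, was at the low end, with 91.6 RPKM in the knockout arm, against 124, 122, 156 and 158 RPKM in wild-type libraries 1 to 4. That value came with an adjusted p of 0.846. The knockout mean lay below all 4 wild-type libraries, which themselves fell into separate pairs. Psma3, which encodes alpha7, stood at 23.1 RPKM in the knockout arm and at 22.8, 22.1, 19.6 and 21.0 RPKM in wild-type libraries 1 to 4, the lowest level among the alpha genes other than Psma8. Psma3 overlaps a feature of the opposite strand, 3110056K07Rik, over 3309 bases. The other alpha genes, Psma1, Psma2, Psma4 and Psma5, stood at 54.7 to 101.8 RPKM in the knockout arm and at 51.0 to 120.02 RPKM in wild-type libraries. For Psma3, reads in the shared stretch cannot be told apart, because the kit named in the labels keeps no strand information.

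The 8 measured beta genes were high throughout. Psmb4, which encodes the non-catalytic beta7, had the highest wild-type mean of the whole set, though Psma7 exceeded it in library 1 and Psmb1 in library 3. Psmb4 stood at 169 RPKM in the knockout arm, against 131, 131, 163 and 165 RPKM in wild-type libraries 1 to 4. The knockout mean was above all 4 libraries, but close to libraries 3 and 4. For Psmb4 the authors' deposited table listed 0.20 as log2 fold change (adjusted p 0.976). The non-catalytic Psmb2 and Psmb3 stood at 102.6 and 74.6 RPKM in the knockout arm, both within their wild-type values.

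The 3 constitutive catalytic subunits had knockout means within, above and below the wild-type values. Psmb5, which carries the chymotrypsin-like site, stood at 59.6 RPKM in the knockout arm, within the 56.8, 63.2, 60.8 and 57.4 RPKM of wild-type libraries 1 to 4, and shares its row of the table with the microRNA gene Mir686. Psmb6, which carries the caspase-like site, had the highest log2 fold change among beta genes in the authors' deposited table, 0.22 (adjusted p 0.973). It stood at 95.1 RPKM in the knockout arm, against 76.3, 80.2, 85.2 and 84.1 RPKM in wild-type libraries 1 to 4. Psmb7, which carries the trypsin-like site, stood at 68.8 RPKM in the knockout arm, against 80.5, 79.4, 101.6 and 101.4 RPKM in wild-type libraries 1 to 4. The knockout mean was above all wild-type libraries for Psmb6 and below all of them for Psmb7. Psmb7 was listed at a log2 fold change of -0.40 (adjusted p 0.926) in the authors' deposited table.

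Psmb10 encodes the immunoproteasome subunit that replaces the product of Psmb7. In wild type its level lay between those of Psmb5 and Psmb6. It stood at 51.0 RPKM in the knockout arm, against 72.4, 75.04, 79.8 and 76.2 RPKM in wild-type libraries 1 to 4. It had the lowest log2 fold change among beta genes in the authors' deposited table, -0.57 (adjusted p 0.863), and its knockout mean was below all 4 wild-type libraries. The ratio of Psmb10 to Psmb7 per length was 0.741 in the knockout arm, against 0.9002 and 0.946 in wild-type libraries 1 and 2 and 0.785 and 0.751 in libraries 3 and 4. That ratio differed more between the wild-type pairs than between the knockout arm and libraries 3 and 4.

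The 6 ATPases of the regulatory particle, Psmc1 to Psmc6, had log2 fold changes of -0.19 to 0.20 in the authors' deposited table. Psmc3 had the highest mean of them in wild type. It stood at 84.8 RPKM in the knockout arm, against 82.2, 83.9, 86.6 and 86.2 RPKM in wild-type libraries 1 to 4. Psmc2 had the lowest wild-type mean. It stood at 45.0 RPKM in the knockout arm, against 46.9, 47.1, 52.9 and 54.0 RPKM in wild-type libraries 1 to 4. The knockout mean of Psmc3 thus lay inside the wild-type values and that of Psmc2 just below them. Psmc1 and Psmc4 marked the ends of the range of log2 fold changes. Psmc1 stood at 72.5 RPKM in the knockout arm, against 77.7, 77.2, 87.6 and 88.2 RPKM in wild-type libraries 1 to 4. Psmc4 stood at 60.6 RPKM in the knockout arm, against 54.1, 55.8, 50.6 and 50.8 RPKM in wild-type libraries 1 to 4. The authors' deposited table gave Psmc1 an adjusted p of 0.978 and Psmc4 one of 0.976. Psmc5 and Psmc6 stood at 62.2 and 62.0 RPKM in the knockout arm and at 52.9 to 63.2 RPKM in wild-type libraries.

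The 14 genes named Psmd had log2 fold changes of -1.28 to 0.80 in the authors' deposited table, with an interquartile range of 0.56, against 0.13 for alpha, 0.32 for beta and 0.19 for ATPase genes. Psmd2, which encodes Rpn1, the large scaffold that holds ubiquitin-binding shuttles, was the highest in wild type, with 88.5 RPKM in the knockout arm, against 82.7, 83.3, 94.3 and 92.4 RPKM in wild-type libraries 1 to 4. The lowest in wild type was Psmd9, with 9.74 RPKM in the knockout arm, against 9.64, 9.69, 11.2 and 10.03 RPKM in wild-type libraries 1 to 4. Psmd9, Psmd10 and Psmd5 encode chaperones that help to assemble the ATPase ring and leave before the particle is complete. The 3 of them had wild-type means of 10.1, 17.7 and 40.3 RPKM, while the 11 structural genes ran from 35.5 to 88.2 RPKM.

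Psmd10, which encodes the chaperone gankyrin, had the lowest log2 fold change of the set. It stood at 7.26 RPKM in the knockout arm, against 15.8, 16.0, 19.8 and 19.2 RPKM in wild-type libraries 1 to 4, and no other feature of the table overlaps it (chromosome X, 137482964 to 137491250, mm9). Psmd10 was listed in the authors' deposited table at -1.28 on the log2 scale, a ratio of 0.411 (adjusted p 0.477). Psmd14 encodes Rpn11, the metalloprotease that removes ubiquitin chains before degradation. It stood at 33.4 RPKM in the knockout arm, against 58.0, 56.3, 65.7 and 65.3 RPKM in wild-type libraries 1 to 4. The authors' deposited table listed Psmd14 at -0.88 on the log2 scale (adjusted p 0.709). Rpn11 works as a dimer with the product of Psmd7, Rpn8, and the ratio of Psmd14 to Psmd7 per length was 0.506 in the knockout arm, against 0.843 to 0.875 in wild-type libraries. For Psmd10 and Psmd14 alike the knockout mean was below every wild-type library.

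Psmd11 and Psmd8 lay at the other end. Psmd11, which encodes Rpn6, a lid subunit that bridges to the core particle, stood at 61.9 RPKM in the knockout arm, against 34.02, 33.2, 39.0 and 35.6 RPKM in wild-type libraries 1 to 4. For Psmd11 the authors' deposited table listed a log2 fold change of 0.80 (adjusted p 0.751). The last 650 bases of Psmd11 overlap the antisense locus HAG_006932, which had a log2 fold change of 0.84 in the same table and stood at 2636 normalised counts in the knockout arm, against 1406 to 1569 in wild type, so part of either value may be reads of the other. Psmd8, which encodes the lid subunit Rpn12, stood at 103.6 RPKM in the knockout arm, against 68.8, 71.7, 83.4 and 80.8 RPKM in wild-type libraries 1 to 4. The authors' deposited table listed it at 0.44 on the log2 scale (adjusted p 0.912). Both knockout means were above every wild-type library. The remaining genes of this group, Psmd1, Psmd3 to Psmd7, Psmd12 and Psmd13, had log2 fold changes of -0.46 to 0.27.

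The comparison of the arms asks whether transcripts of proteasome subunits differ in HSCs labelled as lacking Dnmt3a. By the authors' deposited table, with calls at an adjusted p under 0.05, none of the 36 measured genes was called in either direction, while 6.84% of all 21778 tested features were called, 3.15% higher and 3.7% lower. In the range of counts that the 36 genes span, 3.19% of 9022 tested features were called, so a count of 0 among 36 is near that background. With calls at an adjusted p under 0.1 the count was also 0, against 9.38% of all tested features. The lowest adjusted p among the 36 was that of Psma8, at 0.152, and 30 of them had one above 0.9. The smallest called rise in the authors' deposited table was 5.69-fold and the smallest called fall 5.72-fold, over all tested features. The differences of Psma8, Psmd10 and Psmd14 were smaller than any that table called, and the lack of a call does not show equal levels. Megakaryocyte, erythroid, macrophage and mast cell markers took a smaller share in the knockout arm than in every wild-type library, as given above. For immediate early genes and neutrophil markers the share in the knockout arm lay between those of the wild-type pairs. The part of all these markers in the values of the subunit genes was not tested.

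**Figure D2:**
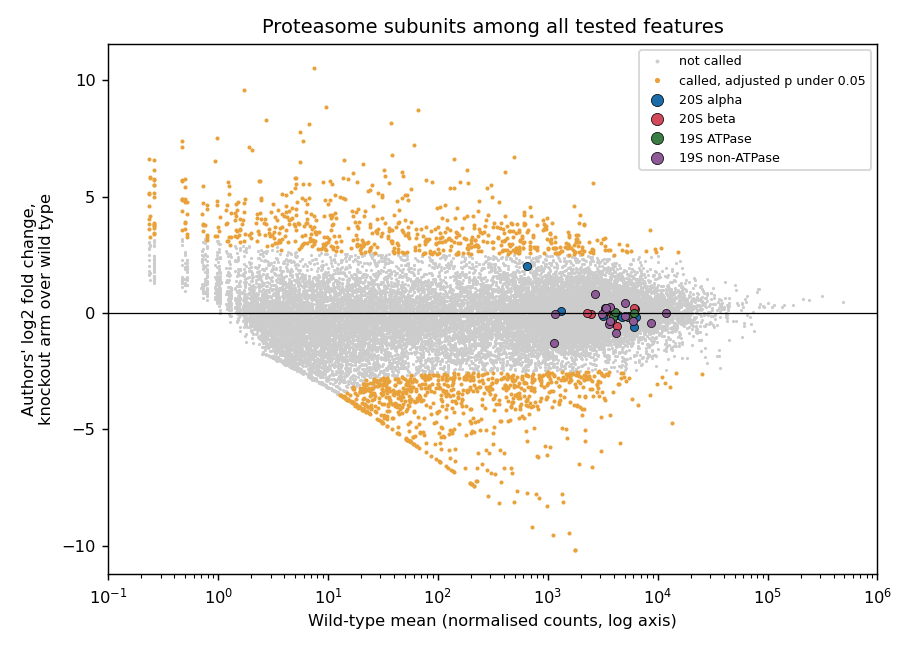
Log2 fold change of the authors' deposited table against the wild-type mean in normalised counts (log axis) for all tested features, with features called at an adjusted p under 0.05 in orange and the 36 measured proteasome genes as large points. The 36 lie in a narrow band about 0, and those farthest from it are Psma8 at 2.004 and Psmd10 at -1.28.

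The spread of the log2 fold changes was small. Their interquartile range was 0.35 over the 36 genes, against 1.17 over tested features in the same range of counts, and their median was -0.05, against -0.01. In 30 of the 36 genes (83.3%) the log2 fold change was under 0.5 in either direction, which held for 44.1% of features in that range of counts. Against wild-type libraries 1 and 2 alone it was again 30 of 36, and against libraries 3 and 4 alone 27 of 36, where 44.6% and 41.6% of features in that range stood within that limit. The knockout mean lay above all 4 wild-type libraries for 10 of the 36 genes (27.8%), below all 4 for 14 (38.9%) and among them for 12 (33.3%). For features in the same range of counts those shares were 42.1%, 42.5% and 15.5%. A knockout mean outside all 4 wild-type libraries was therefore common among such features. No test of these shares was run. Taken by role, the authors' deposited table had median log2 fold changes of -0.12 for alpha, 0.02 for beta, 0.03 for ATPase and -0.09 for non-ATPase genes. Against libraries 3 and 4 alone the beta and ATPase medians were -0.07 and -0.03, so their sign depends on the wild-type libraries used. The same holds for the alpha median and that of all 36 genes, which were 0.0155 and 0.0176 against libraries 1 and 2 alone.

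**Figure D3:**
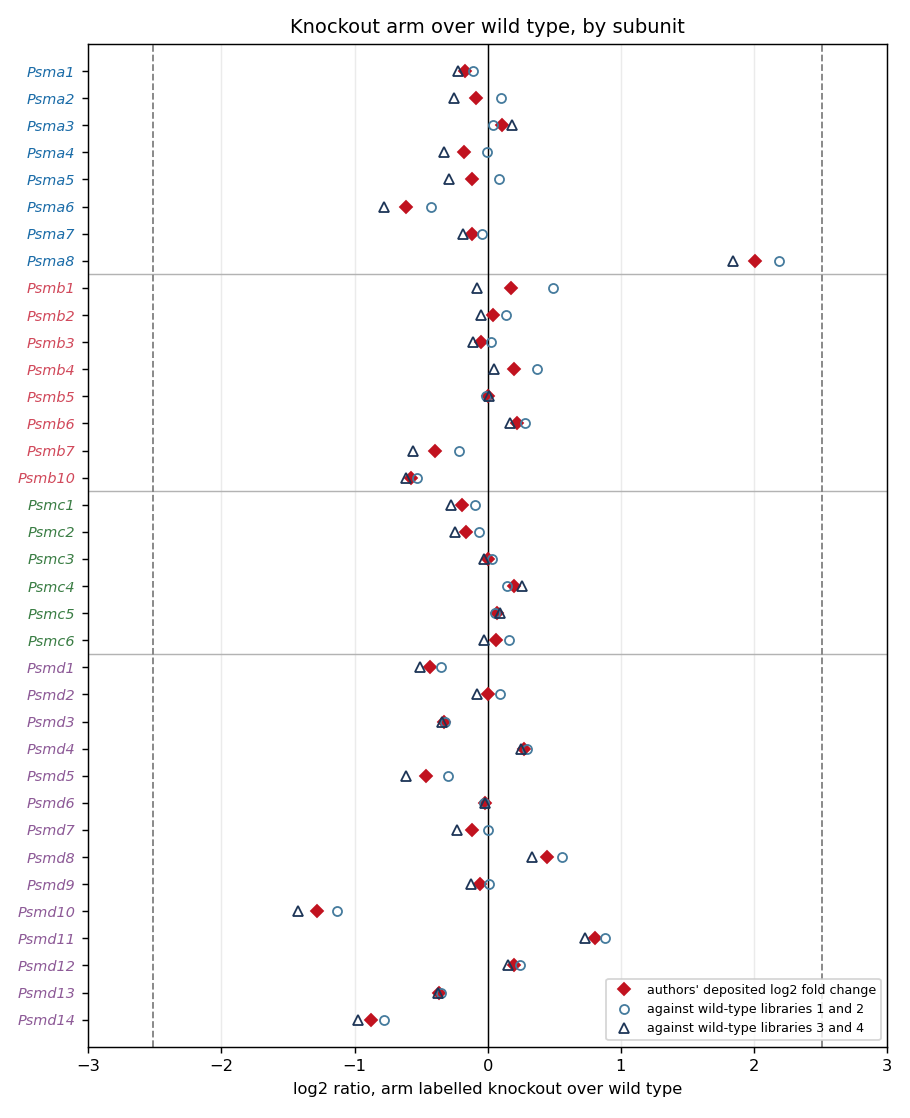
Log2 ratio of the arm labelled knockout over wild type for the 36 measured genes, from the authors' deposited table (diamonds) and recomputed against each wild-type pair (open symbols); dashed lines mark the smallest called changes of the table, 2.51 and -2.52. All genes lie between the dashed lines, and 34 of the 36 lie within 1 of 0.

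The wild-type pairs also differed in these genes, by less than 1 on the log2 scale in every case. Libraries 3 and 4 both stood above libraries 1 and 2 in 29 of the 36 genes (80.6%), against 50.6% of tested features in the same range of counts. Both stood below in 3 of the 36 (8.33%), against 38.5% of those features. The median log2 difference of libraries 3 and 4 over 1 and 2 was 0.16 for the 36 genes and 0.05 for those features, and 0.09 for the 36 genes when only library totals were used. The difference exceeded those within both pairs in 30 of the 36 genes. No share over other features was taken for that count, so it is not a result about these genes. The difference between pairs was largest for Psmb1, which encodes the non-catalytic beta6. Its levels were 163.9 and 162 RPKM in libraries 3 and 4, against 109 and 111 RPKM in libraries 1 and 2. Psmb1 stood at 154 RPKM in the knockout arm, among the wild-type values. The alpha genes had a median difference of 0.33 and the ATPases one of 0.12. Immediate early genes and neutrophil markers differed between the same pairs, with the shares given above, and their part in these differences was not tested. The pairs are not labelled groups, so no test was run between them.

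**Figure D4:**
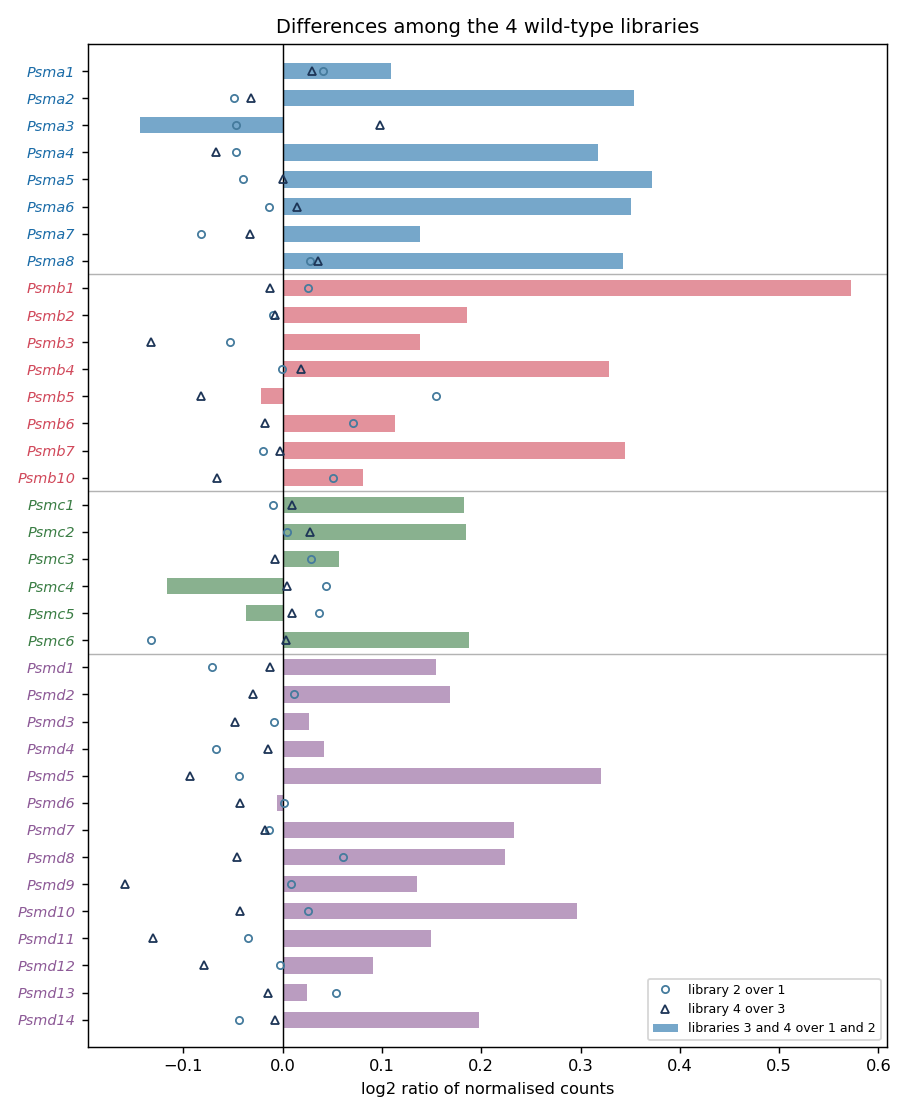
Log2 ratio of normalised counts in wild-type libraries 3 and 4 over libraries 1 and 2 (bars, coloured by alpha, beta, ATPase and non-ATPase genes) with the ratios within each pair (open symbols). In 31 of 36 genes the bar is above 0, up to 0.57 for Psmb1, while ratios within a pair stay within 0.16 of 0. Of 9022 tested features in the same range of counts, 5069 had a ratio between pairs above 0.

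Other genes of the pathway were examined in 5 lists that hold 30 genes in all, each of them measured. None of the 30 was called in either direction, against 6.84% of all tested features and 3.19% in the range of counts that the subunit genes span, so that count is near the background. The 5 assembly chaperones of the core particle all had negative log2 fold changes in the authors' deposited table, as did 11772 of 21778 tested features. In the subunit genes' range of counts, 4548 of 9022 features were negative. The median of the 5 was -0.47, against -0.10 over all tested features and -0.01 in that range. Psmg4 was positive against libraries 1 and 2 alone. Psmg1 and Psmg2 act as a pair that starts the alpha ring. Psmg1 stood at 11.9 RPKM in the knockout arm, against 36.6, 38.1, 42.6 and 43.6 RPKM in wild-type libraries 1 to 4, and the authors' deposited table listed it at -1.76 on the log2 scale (adjusted p 0.243). Psmg2 stood at 14.0 RPKM in the knockout arm, against 40.5, 39.2, 31.6 and 33.7 RPKM in wild-type libraries 1 to 4, and was listed there at -1.37 (adjusted p 0.433). Both knockout means were below every wild-type library. Pomp, the chaperone of the beta ring, had a log2 fold change of -0.47 and Psmg3 one of -0.45.

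Of the 5 genes for regulators and their processing, 4 had positive log2 fold changes in the authors' deposited table, as did 10006 of 21778 tested features. The median of the 5 was 0.80. Nfe2l1, the transcription factor that raises proteasome genes, stood at 60.8 RPKM in the knockout arm, against 31.7, 32.3, 38.5 and 37.6 RPKM in wild-type libraries 1 to 4 (log2 fold change 0.80, adjusted p 0.755). Ddi2, the protease that cuts Nfe2l1 into its active form, stood at 78.7 RPKM in the knockout arm, against 20.9, 21.6, 17.5 and 17.5 RPKM in wild-type libraries 1 to 4. It shares its row with Rsc1a1, and the authors' deposited table listed that row at 2.02 on the log2 scale (adjusted p 0.1445). Ngly1, the glycanase that prepares Nfe2l1 for this cut, was listed there at -1.13 (adjusted p 0.564). Nfe2l2, the oxidative stress factor, stood at 138 RPKM in the knockout arm, against 42.9, 43.2, 56.6 and 55.1 RPKM in wild-type libraries 1 to 4 (log2 fold change 1.48, adjusted p 0.371). For Vcp, which extracts Nfe2l1 from membranes, the value was 0.11.

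Among activators and inhibitors, Psme4, which encodes the activator PA200, was listed by the authors' deposited table at a log2 fold change of 1.11, with 58.9 RPKM in the knockout arm and 25.7 to 28.4 RPKM in wild-type libraries. The inhibitor gene Psmf1 had one of -0.79, Psme1, a subunit of the 11S activator, one of 0.30, and its partner Psme2 one of -0.23. Among receptors and deubiquitinases, the ubiquitin receptor Adrm1 had a log2 fold change of 1.01, the deubiquitinase Usp14 -0.81 and the shuttle Ubqln4 0.74 in that table. The ubiquitin gene Ubb had 0.64 and the activating enzyme Uba6 0.33.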

How the data were processed

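PolyA-selected RNA from a Qiagen RNeasy Micro kit went into TruSeq RNA libraries, per the labels. The authors deposited raw read counts per feature for each library. Coordinates are on mm9, and DESeq was used, per the submitters' processing notes. Aligner, counter and annotation are points not given in the sources used here. Exon lengths came from the signal the authors deposited under an FPKM heading, taking 50 as its constant, since each feature's signal per count was equal across libraries, within a relative tolerance of 1e-09, in all 20187 features with reads in each. Deposited p-values were read as adjusted, since 80.7% of tested features share their value with another. Of 30 columns, 8 are of libraries not analysed here.

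Normalised counts are counts over size factors from medians of ratios (0.951, 0.955, 1.048 and 1.065), and levels divide these by exon length and the mean library total. The knockout mean was scaled by the offset, 0.399 (SD 0.0030 over 11936 features), between the authors' deposited log2 fold change and its log2 ratio to the wild-type mean. Own log2 ratios use a pseudocount of 1, and library totals were compared with a pseudocount of 0.02 CPM. Alternatives used TMM factors of edgeR 4.0.16, library totals, other minimum counts, single pairs and leaving out each library. No test between genotypes was run. Scripts were tested on simulated data. The library pairs were found with a chi-square test of homogeneity over features with at least 20 reads. The set of genes, the lists and the tests were chosen with earlier results of these data known. Named genes are the extremes of level and of log2 fold change in each structural group, the catalytic and tissue-specific subunits, and, per pathway list, up to 4 genes with the largest changes, some of which are not reported here. Psmd8, Psmb1 and the other genes named beyond that rule were chosen after their values were seen. Python 3.11.15 and R 4.3.3 were used.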

Additional observations from a re-analysis of the deposited data

Results flagged for a closer look

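Psmd3, a lid subunit gene, was the only one of the 36 measured genes with a wild-type library far from the other 3. Its level was 64.9 RPKM in library 3, against 62.9, 62.5 and 62.8 RPKM in libraries 1, 2 and 4, a gap of 0.841 of the whole range. The size of that range is small. Chance sets 1 of 4 independent samples apart in this way in about 1 of 20 genes, but these libraries form pairs, so that rate may not hold for them.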

How the results depend on the processing

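No paired analysis was possible because the labels give 1 group only. The median level of the 36 genes stayed at 63.2 to 65.5 RPKM under 8 alternatives, and the share of counts at 0.347% to 0.356% when single libraries were left out. The median log2 difference of libraries 3 and 4 over 1 and 2 was 0.0931 with library totals and was 0.14 to 0.18 under the other 7. The median log2 ratio of knockout arm over wild type, -0.05, was -0.45 without the scaling offset and -0.39 on library totals, which was added after the data were seen. With wild type cut to libraries 1 and 2 it was 0.02, and with wild type cut to libraries 3 and 4 it was -0.12, so its sign differed. For alpha genes, -0.12 became 0.0155 and -0.24 with those pairs, and -0.17 to -0.07 without single libraries. The beta median, 0.02, was -0.07 with libraries 3 and 4 and -0.01 without library 1, and the ATPase median, 0.03, was -0.03 with libraries 3 and 4. No gene was called at an adjusted p under 0.1 or 0.01. The cause of these shifts was not tested. Depth does not limit these genes, but the knockout arm has no spread here.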
